A study of Mus musculus with 40 samples.

Results

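The loci of 8 genes of the ETS family, Ets1, Ets2, Etv2, Etv6, Elk3, Elf1, Elf2 and Elf4, were examined in a reporter screen for enhancer activity during the differentiation of mouse embryonic stem cells into blood progenitors. A fragment was assigned to a locus when its centre lay in the RefSeq gene body (mm10) or within 25 kb of it, and overlapping fragments of all libraries were merged into regions. By this rule the 8 loci held 653 library entries, an entry being a fragment listed in a library, out of 458486 in the whole series. They came from 521 different fragments in 86 regions, of 354627 different fragments and 75060 regions in all. Of the 653 entries, 511 were from libraries of YFP-positive cells and 142 from libraries of YFP-negative cells.

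All libraries came from HM-1 cells, an embryonic stem cell line of the 129/ola mouse strain that lacks a functional Hprt gene. DNA fragments cut from open chromatin by the Tn5 transposase at each stage were placed before an HSP68 minimal promoter and a Venus-YFP reporter, and the plasmid libraries of the stages were mixed. The construct was targeted to Hprt, which it repaired, so that a cell carried 1 fragment at a fixed site, away from its own locus. Cells were differentiated in serum and sorted at 5 stages, namely embryonic stem cells (ES), hemangioblast cells (HB, FLK1+), a first (HE1, KIT+ TIE2+ CD41-) and a second (HE2, KIT+ TIE2+ CD41+) stage of hemogenic endothelium and hematopoietic progenitors (HP, KIT+ TIE2- CD41+), and within each stage into Negative, Low, Medium and High YFP. With 2 replicates this gave 40 libraries from 10 sorts, a sort being a stage of 1 replicate, and the labels do not say whether the replicates were separate cultures.

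ETS factors share a DNA-binding domain that reads a GGAA core, and several of them act together in endothelial and blood development. Ets1 is prominent in lymphoid cells and endothelium, and Ets2 is a target of Ras and MAP kinase signalling. Etv2 is needed in the mesoderm for the first blood and endothelial cells. Etv6, also called TEL, is a repressor needed for blood formation in the bone marrow and is a frequent partner in leukaemia fusions. Elk3 is a ternary complex factor that binds with serum response factor. Elf1, Elf2 and Elf4 form a subfamily expressed widely in blood cells. The screen records whether a piece of DNA drives YFP from Hprt and holds no measure of the transcript of any of these genes, so the loci are described here as sources of fragments.

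The DNA behind the results is shown for 7 elements, with coordinates of mm10 (sequence of GRCm38) on the plus strand, 5′ to 3′. Capitals mark matches, on either strand, to the letters searched, which were CGGAAGT with its variant AGGAAGT for ETS factors, TGANTCA for the AP-1 family, TGTGGT for the RUNX family, AGATAAG for the GATA family, GGAATG for the TEAD family, ACAATGG with its variant ACAAAGG for the SOX family, CAGCTG for factors that bind an EBOX and TTGCGCAA for the CEBP family. The first pair are the centres of the regions of Ets1 with most fragments, with RUNX and EBOX matches in the first and TEAD, SOX and RUNX matches in the second, where the first SOX match and the RUNX match overlap.
Ets1 -23.6 kb, chr9:32672311-32672610: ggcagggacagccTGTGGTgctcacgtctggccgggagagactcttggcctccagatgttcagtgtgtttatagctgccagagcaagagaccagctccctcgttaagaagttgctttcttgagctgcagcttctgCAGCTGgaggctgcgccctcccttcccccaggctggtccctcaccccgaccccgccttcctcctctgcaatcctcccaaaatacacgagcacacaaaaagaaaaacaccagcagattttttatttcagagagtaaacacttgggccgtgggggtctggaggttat
Ets1 20.2 kb, chr9:32716127-32716426: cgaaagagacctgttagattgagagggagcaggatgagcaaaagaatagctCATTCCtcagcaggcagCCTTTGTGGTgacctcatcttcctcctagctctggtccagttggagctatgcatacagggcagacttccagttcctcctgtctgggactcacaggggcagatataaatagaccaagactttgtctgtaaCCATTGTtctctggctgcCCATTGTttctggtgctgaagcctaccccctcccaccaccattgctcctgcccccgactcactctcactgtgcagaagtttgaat
The next is the single region of Etv2, which held no match.
Etv2 -3.4 kb, chr7:30639148-30639447: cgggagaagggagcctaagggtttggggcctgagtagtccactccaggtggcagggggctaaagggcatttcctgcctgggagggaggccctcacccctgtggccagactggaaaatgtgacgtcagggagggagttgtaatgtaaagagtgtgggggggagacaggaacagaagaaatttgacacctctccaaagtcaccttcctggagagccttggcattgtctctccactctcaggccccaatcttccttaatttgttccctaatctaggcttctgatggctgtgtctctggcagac
The fourth is the one fragment of the loci found in most libraries, 217 bp long and also without a match.
Etv6 11.7 kb fragment, chr6:134047132-134047348: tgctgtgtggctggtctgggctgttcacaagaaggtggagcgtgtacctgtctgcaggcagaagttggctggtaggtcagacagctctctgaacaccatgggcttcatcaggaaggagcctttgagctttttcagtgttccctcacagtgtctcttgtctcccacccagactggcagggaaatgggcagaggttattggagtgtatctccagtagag
The fifth is a region of Elk3 found in both replicates, the only one of 17 described singly that held an ETS match, at bases 80 to 86 on the minus strand.
Elk3 -14.8 kb, chr10:93325853-93326152: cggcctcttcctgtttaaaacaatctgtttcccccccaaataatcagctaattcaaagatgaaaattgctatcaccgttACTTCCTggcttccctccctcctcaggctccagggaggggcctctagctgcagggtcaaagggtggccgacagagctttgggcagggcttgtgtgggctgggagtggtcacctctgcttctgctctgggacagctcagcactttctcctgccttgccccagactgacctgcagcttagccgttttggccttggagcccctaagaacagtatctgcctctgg
The last pair are the leading region of Elf2, with a RUNX and a GATA match, and that of Elf4, which covers an Elf4 start site, has a GC content of 68.7% and held no match.
Elf2 -8.3 kb, chr3:51348842-51349141: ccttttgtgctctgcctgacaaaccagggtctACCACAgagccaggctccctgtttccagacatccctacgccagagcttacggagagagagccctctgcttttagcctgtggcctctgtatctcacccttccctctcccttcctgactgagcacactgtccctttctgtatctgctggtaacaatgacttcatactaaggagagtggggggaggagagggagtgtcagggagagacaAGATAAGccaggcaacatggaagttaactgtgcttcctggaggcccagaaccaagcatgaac
Elf4 start site, chrX:48454157-48454456: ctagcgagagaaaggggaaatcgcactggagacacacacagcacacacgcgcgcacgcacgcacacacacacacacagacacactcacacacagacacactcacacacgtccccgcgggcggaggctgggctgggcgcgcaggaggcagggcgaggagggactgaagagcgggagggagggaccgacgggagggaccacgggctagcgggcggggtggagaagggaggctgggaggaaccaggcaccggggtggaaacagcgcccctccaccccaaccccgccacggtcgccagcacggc

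Regions are named here by the distance of their centre from the nearest annotated start site of the gene, negative when upstream. Several genes have more than 1 start site, so that a negative distance can lie inside the gene. The Ets1 -23.6 kb region, for example, lies in an intron of the longer Ets1 transcript, 36.2 kb past that transcript's start. Over the 300 bp windows of all 86 regions the ETS letters occurred in 12 (14.0%), against 13.3% of the 75043 windows of the whole series. AP-1 letters occurred in 15 (17.4% against 13.0%), RUNX in 18 (20.9% against 23.3%), GATA in 7 (8.14% against 5.85%), TEAD in 22 (25.6% against 18.7%), SOX in 7 (8.14% against 12.4%) and EBOX in 18 (20.9% against 19.7%). CEBP letters were found in 0 of the 86 windows and in 0.0493% of all windows. These shares describe letters in a window, not binding.

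The libraries differed in ways that touch every count below. A library of replicate 1 held 4869 to 51146 fragments (median 15805, 20 libraries) and one of replicate 2 held 654 to 31915 (median 2750, 20 libraries), so that 568 of the 653 entries came from replicate 1 and 85 from replicate 2. All 20 libraries of replicate 1 held fragments of the 8 loci, and 3 of replicate 2 held none. Fragments of replicate 1 had a mean GC content of 54.3% at the 8 loci (55.6% over all its fragments), and those of replicate 2 had 50.1% (49.6%). The HE1 libraries of replicate 1 stood apart, since 69.8% of the Negative fragments were also in the Medium library. At the 8 loci 40 of the 65 Negative fragments of that sort were in the Medium library too. In the HP sort of replicate 1 the share of Negative fragments also in a positive library was 0%, and in the other 8 sorts it ran from 6.67% to 55.8%. The part of these differences in the results was not tested, and the values without the HE1 sort of replicate 1 are given where they matter.

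Of the 8 loci, Ets1 supplied most fragments and Etv2 fewest. The Ets1 locus (chr9:32636241-32757820, plus strand) held 160 different fragments in 18 regions, the Elf4 locus (chrX:48411049-48463132, minus strand) 97 in 6 and the Elf2 locus (chr3:51252720-51340683, minus strand) 92 in 15. The Etv6 locus (chr6:134035700-134270158, plus strand) held 73 in 17 regions, Elf1 (chr14:79481174-79582491, plus strand) 45 in 15, Elk3 (chr10:93247415-93311159, minus strand) 34 in 10, Ets2 (chr16:95702407-95721049, plus strand) 13 in 4 and Etv2 (chr7:30633616-30636509, minus strand) 7 in 1. Set against the width of the locus with its flanks, Elf4 had 95.02 and Ets1 93.3 different fragments per 100 kb, and the median of the 8 loci was 29.8. The median over all 21000 protein-coding gene loci was 7.86 per 100 kb. Elf4 lay above 91.6%, Ets1 above 91.4%, Elf2 above 86.8%, Elk3 above 72.7%, Elf1 above 72.6%, Etv6 above 69.7%, Ets2 above 64.0% and Etv2 above 57.9% of them. The width counts all DNA and not open chromatin alone.

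The other 18 mouse ETS genes gave a median of 10.2 different fragments per 100 kb. Etv4 (119) and Spi1 (106), the gene of the myeloid factor PU.1, had denser loci than any of the 8, and Spic had 0 fragments. At Etv2, Elk3, Elf1, Elf2 and Elf4 the 25 kb flanks reached into other protein-coding genes, 4 at Etv2 (Upk1a, Cox6b1, Rbm42 and Haus5), 1 at Elk3 (Cdk17), 2 at Elf1 (Wbp4 and Sugt1), 1 at Elf2 (Noct) and 2 at Elf4 (Bcorl1 and Aifm1). A fragment there cannot be assigned to a target gene from its position.

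**Figure D1:**
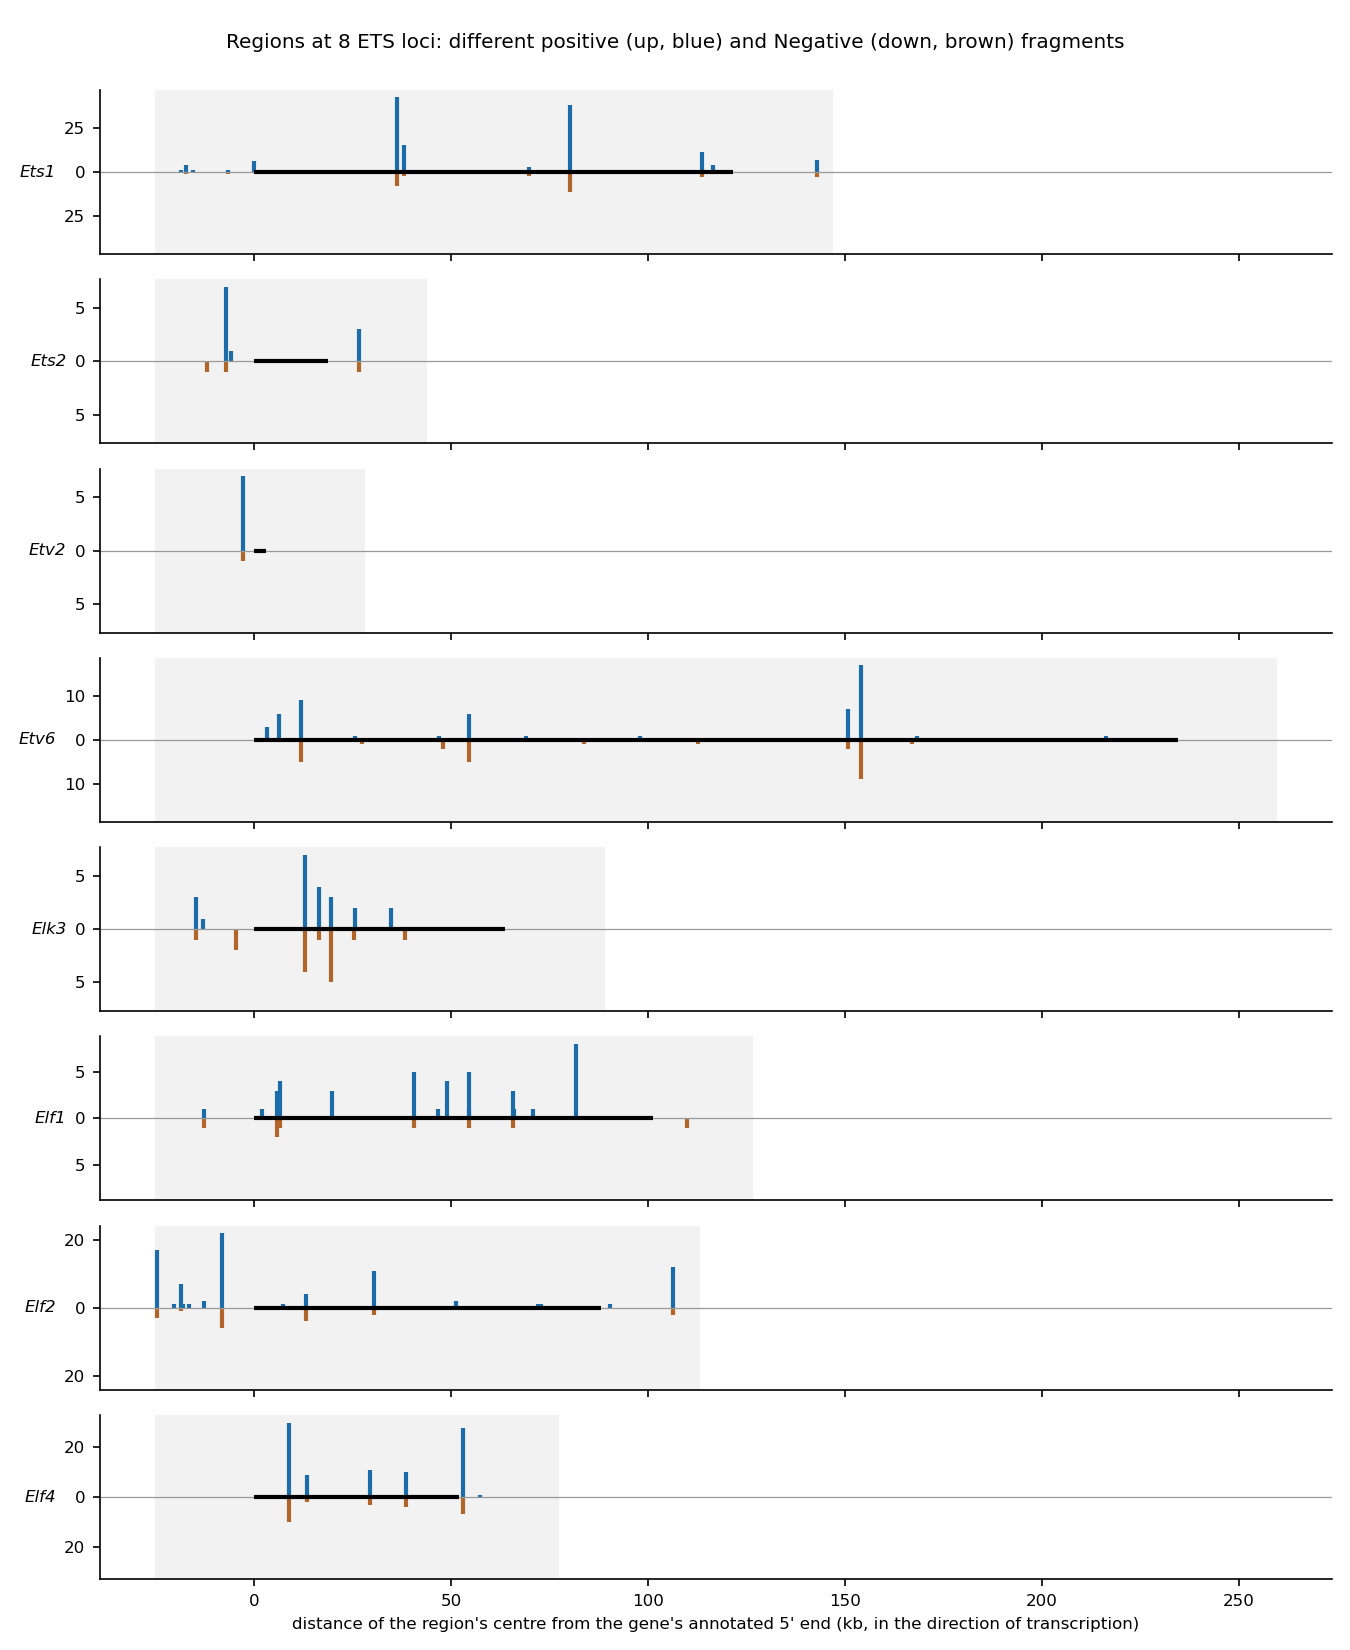
Regions at the 8 loci by the distance of their centre from the annotated 5′ end of the gene, in kb in the direction of transcription (black bar, gene body; grey, the locus with its flanks); blue lines upward give different positive fragments and brown lines downward different Negative fragments, with a scale of its own for each locus. Ets1 shows the regions with 42 and 38 positive fragments inside the gene, and Etv2 a single region upstream.

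Most regions were small. Of the 86 regions 39 (45.3%, against 60.6% of all regions) consisted of 1 different fragment, and 8 regions with at least 20 entries held 307 of the 653 entries (47.0%). Over the whole series 7.65% of regions reached 20 entries, against 9.30% here. By the centre of the region, 61 lay in introns, 23 between genes and 2 in exons, and in 67 the nearest start site was that of the member itself. Only 2 centres lay within 1500 bp of a start site, 1 at Ets1 and 1 at Elf4. Positive fragments were present in 74 regions (86.0%, against 84.0% of all regions) and 12 regions held Negative fragments alone.

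Most regions came from 1 replicate, here as in the whole series. Of the 86 regions 42 (48.8%) held fragments of replicate 1 alone, 29 (33.7%) of replicate 2 alone and 15 (17.4%) of both, against 33.0%, 57.7% and 9.28% of all 75060 regions. Of the 521 different fragments 6 (1.15%) were identical in both replicates, against 0.956% of all fragments. Positive fragments of both replicates were found in 11 regions (12.8%, against 6.84% of all regions), and in 9 at the same stage (10.5% against 5.07%). Those 9 were Ets1 -23.6 kb (HP), Etv2 -3.4 kb (HE2), Etv6 11.7 kb (HE1 and HE2), Etv6 54.5 kb (HE1), Elk3 -14.8 kb (HE2), Elf1 6.4 kb (ES), the Elf4 start site (HE1), Elf4 29.7 kb (HE1) and Elf4 4.4 kb (HB).

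**Figure D2:**
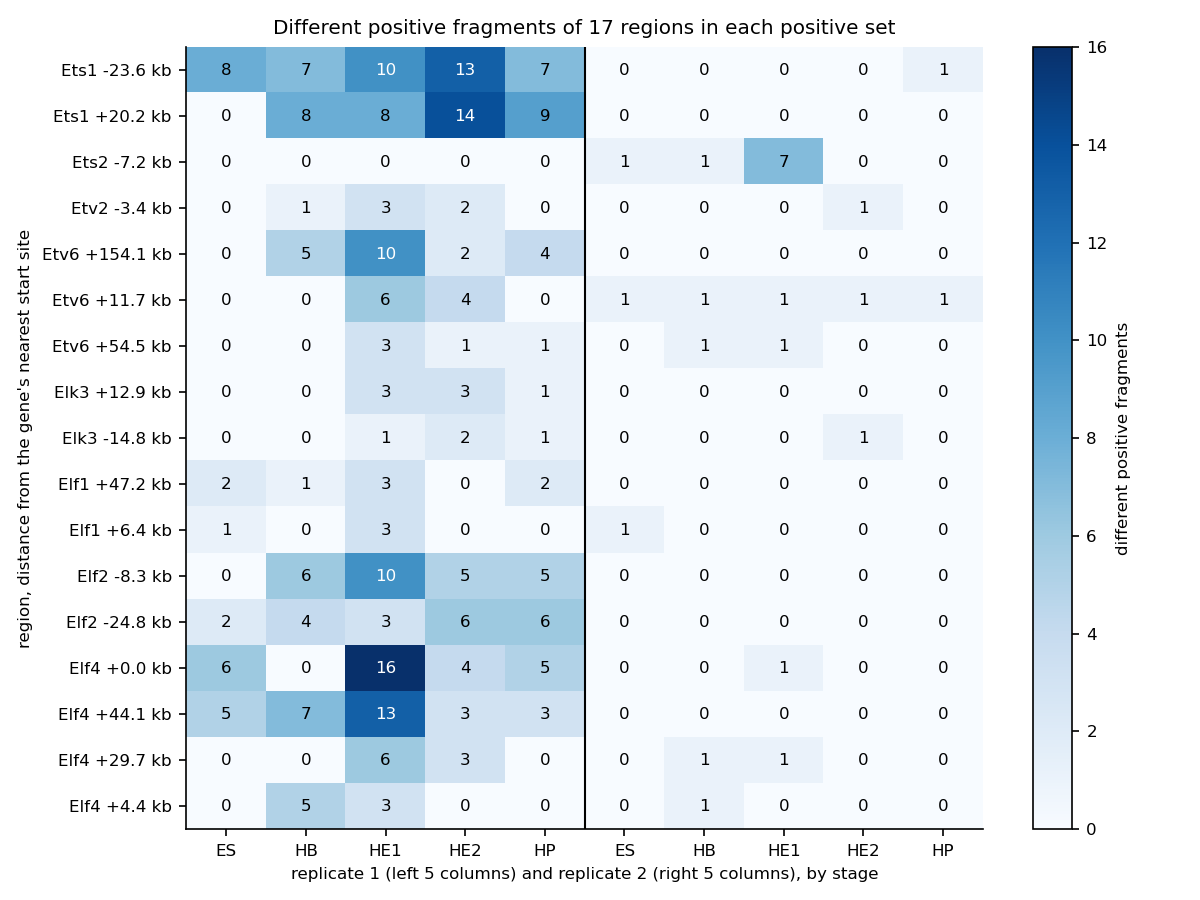
Different positive fragments of the 17 regions described singly in each of the 10 positive sets, with replicate 1 in the left 5 columns and replicate 2 in the right 5; colour and printed numbers both give the count. The highest count was 16 at the Elf4 start site in HE1 of replicate 1, and most cells of replicate 2 were at 0.

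The Ets1 -23.6 kb region (chr9:32671987-32672935, 949 bp, intronic) was the largest of the 8 loci, with 42 different positive and 8 different Negative fragments. In the positive sets of replicate 1, a positive set being the union of the Low, Medium and High libraries of a sort, it held 8 fragments at the ES stage, and then 7 (HB), 10 (HE1), 13 (HE2) and 7 (HP). Replicate 2 held 1, in HP. Positive fragments were thus present at all 5 stages in replicate 1, and in 1 of 5 stages in replicate 2. The deepest point was covered by 24 of the 42 positive fragments. By gate the region had 12 Low, 15 Medium, 21 High and 8 Negative entries.

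The Ets1 20.2 kb region (chr9:32715959-32716595, intronic) was listed at fewer stages. Its positive fragments numbered 0 (ES), 8 (HB), 8 (HE1), 14 (HE2) and 9 (HP), all in replicate 1, and 11 different Negative fragments, of which 6 came from HP. Its positive fragments were short, with a median of 132 bp against 197.5 bp in the Ets1 -23.6 kb region, and 27 of 38 overlapped at the deepest point. The difference between these regions in ES, 8 positive fragments against 0, rests on 1 library set and was not tested. The 20.2 kb region also had 0 Negative fragments in ES. It was thus absent from the ES lists, which give no measure of its activity there.

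Fragments at the other regions of Ets1 were fewer, and those named next were chosen after their values were seen. A region at -21.7 kb, close to the largest, held 15 different positive fragments (HE1 and HE2) and one at 53.8 kb held 11 (HE1 and HE2). The region at the Ets1 start site (-0.2 kb) held 6 different positive fragments, with 3 each at HE1 and HE2 and 1 at HP, and 0 Negative fragments. A region at 15.9 kb was a single 109 bp fragment listed in 8 libraries, all of replicate 2, of which 4 were Negative libraries.

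Elf4 carried a region over a start site and another past the 3′ end of the gene. The start site region (chrX:48453844-48454770) held in replicate 1, by stage from ES to HP, 6, 0, 16, 4 and 5 positive fragments, and 1 in HE1 of replicate 2. It also held 10 Negative fragments, 7 of them in HE1 of replicate 1, and 8 of its 10 different Negative fragments were also listed as positive. The second (chrX:48409865-48410570, 44.1 kb) held 5, 7, 13, 3 and 3 in the same order in replicate 1, and 0 in replicate 2. The regions resembled each other in size, with 30 and 28 different positive fragments, and both were rich in G and C (68.7% and 62.7% in their central windows). Over all Elf4 fragments the mean GC content was 63.0% (SD 7.90 between fragments), the highest of the 8 loci.

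Elf2 had its main regions upstream of the gene. The Elf2 -8.3 kb region (chr3:51348573-51349411) held 0, 6, 10, 5 and 5 positive fragments from ES to HP of replicate 1. The Elf2 -24.8 kb region (chr3:51365021-51365860) held 2, 4, 3, 6 and 6, and 3 further entries of the region fell outside the limit of the locus. Neither had a fragment in replicate 2. Negative fragments of the former numbered 6, of which 5 came from HE1 of replicate 1, the sort whose Negative and Medium libraries share fragments. Further positive fragments, at regions chosen after their values were seen, lay at 43.0 kb, inside Noct (12 different), and at 30.3 kb, in an Elf2 intron (11 different).

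At Etv6 the leading regions differed between the replicates. The Etv6 154.1 kb region (chr6:134189416-134190095, intronic) held 0, 5, 10, 2 and 4 positive fragments from ES to HP of replicate 1 and 0 in replicate 2, with 10 Negative entries. The Etv6 11.7 kb region (chr6:134047132-134047693, intronic) held positive fragments in HE1 (6) and HE2 (4) of replicate 1 and 1 in every stage of replicate 2. That 1 was the 217 bp fragment printed above, which was listed in 17 of the 20 libraries of replicate 2 and in 2 of replicate 1, in 5 Negative, 5 Low, 7 Medium and 2 High libraries. Only 6 fragments of the whole series were listed in as many libraries. It made up 17 of the 33 entries of Etv6 in replicate 2. It was thus listed in all 4 gates.

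The remaining loci held few fragments. The Etv2 -3.4 kb region (chr7:30639175-30639421, 247 bp, between genes) was the only one of its locus, with 7 different positive fragments, of which 1 was also listed as Negative. They came from HB (1), HE1 (3) and HE2 (2) of replicate 1 and HE2 (1) of replicate 2, and ES and HP had 0. A 0 in ES of replicate 1, in a set of 27717, allows up to 1.08 per 10000, counting error only, and the region's highest rate in replicate 1 was 0.294, so that a difference between stages was not detectable at this depth. Ets2 was the only locus with most entries from replicate 2 (12 of 16). Its -7.2 kb region (chr16:95694990-95695370) held 1, 1 and 7 positive fragments in ES, HB and HE1 of replicate 2 and none in replicate 1.

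The leading region of Elk3 was intronic, at 12.9 kb (chr10:93297864-93298733), with 7 different positive fragments from HE1 (3), HE2 (3) and HP (1) and 4 Negative fragments. The Elk3 -14.8 kb region, with the ETS match, held 1 (HE1), 2 (HE2) and 1 (HP) positive fragments of replicate 1 and 1 (HE2) of replicate 2. Its fragments were few in kind, since 1 of 205 bp accounted for 4 of its 6 entries. In Elf1 the leading region, at 47.2 kb (chr14:79562714-79563080, intronic), held 8 different positive fragments, 2 in ES, 1 in HB, 3 in HE1 and 2 in HP, all of replicate 1. It was the only leading region of the 8 loci with 0 Negative fragments, and 5 of its 8 entries were from High libraries. Its 8 fragments are below the minimum of 20 for the test of regions.

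By stage, 15 (ES), 25 (HB), 51 (HE1), 40 (HE2) and 27 (HP) of the 74 regions with positive fragments held them. These were 20.3%, 33.8%, 68.9%, 54.1% and 36.5%, against 27.5%, 35.1%, 63.1%, 31.9% and 27.1% of the 63070 such regions in the whole series. The HE1 positive sets were also the largest, with 101943 and 34809 fragments. Of the 74 regions with positive fragments 31 had them at 1 stage, 18 at 2, 13 at 3, 8 at 4 and 4 at all 5 stages (41.9%, 24.3%, 17.6%, 10.8% and 5.41%). Over the whole series the shares were 61.6%, 13.8%, 10.2%, 6.94% and 7.39%. The 4 regions positive at all stages were Ets1 -23.6 kb, Etv6 11.7 kb, Elf2 -24.8 kb and Elf4 44.1 kb. Of the 39 regions positive at 2 to 4 stages, 30 (76.9%) were so over an unbroken run of stages, against 70.6% of such regions in the whole series. None of these shares was tested. The methods describe a filter for open chromatin at the matching stage, and whether it shaped these lists is not stated. Absence from the lists of a stage is thus no measure of reporter activity there.

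To compare stages, counts were divided by the size of the set. At the Ets1 locus the positive sets of replicate 1 held 3.25 (ES), 3.85 (HB), 3.92 (HE1), 8.62 (HE2) and 4.79 (HP) fragments per 10000. In replicate 2 the values were 0, 1.64, 0.575, 2.88 and 3.84. HE2 was the highest stage in replicate 1 and HP in replicate 2, so the order of stages was not shared. At Etv6 replicate 1 gave 0, 2.05, 2.26, 2.34 and 1.26 per 10000 over the same stages, and replicate 2 gave 1.11, 3.28, 1.72, 2.88 and 1.92. ES was the lowest stage in both replicates of Etv6, but on few fragments. The 0 in replicate 1 allows up to 1.08 per 10000, counting error only, against 1.26 in HP. In replicate 2 ES, HE2 and HP each held 1 positive fragment, in sets of 9020, 3471 and 5208. The order of these stages in replicate 2 thus follows from set size.

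At Elk3 the positive sets of ES were at 0 in both replicates, and HE2 was the highest in both, with 1.61 and 2.88 per 10000. The value of replicate 2 came from 1 fragment in a set of 3471. A 0 in ES of replicate 1 allows up to 1.08 per 10000. Elf2 and Elf4 in replicate 1 ran from 2.45 (HE1) to 4.29 (HP) and from 1.75 (HE2) to 4.41 (HE1), and their positive sets in replicate 2 ran from 0 to 1.15 and from 0 to 1.64. Elf1 ran from 0.770 (HB) to 1.76 (HP) in replicate 1 and from 0 to 2.22 (ES) in replicate 2. Etv2 did not exceed 0.294 in replicate 1 and Ets2 did not exceed 0.504, and their highest values in replicate 2 were 2.88 and 2.01.

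**Figure D3:**
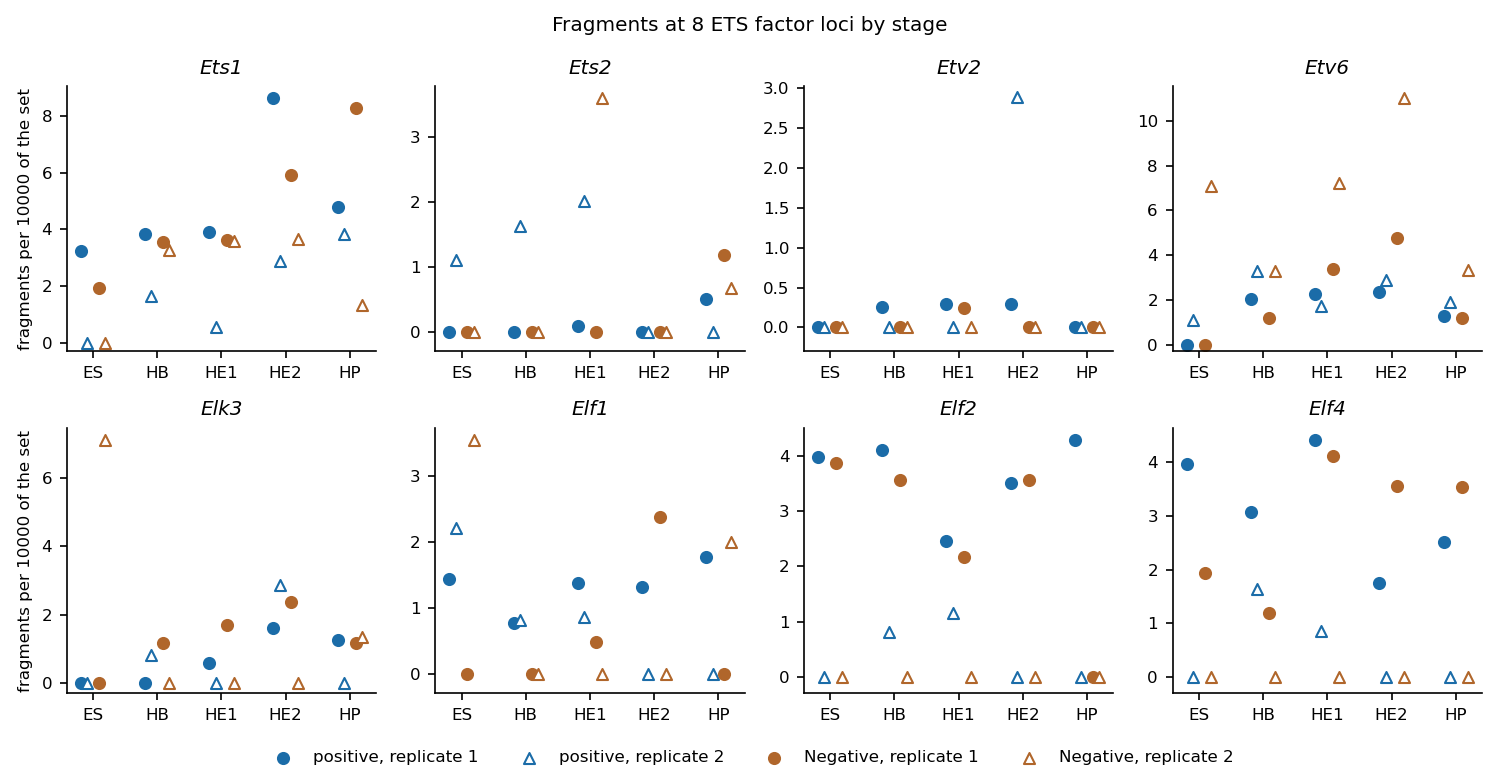
Fragments per 10000 of the set at each locus by stage, for positive sets (blue) and Negative sets (brown) of replicate 1 (filled circles) and replicate 2 (open triangles), with a scale of its own for each locus. At Elf2 and Elf4 the Negative sets of replicate 2 were all at 0, and at Etv6 they ran from 3.27 to 11.001.

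Differences between the 5 stages were tested with limma (voom, F-test) on the 10 positive sets over all gene loci with at least 20 positive fragments. Ets1, Etv6, Elk3, Elf1, Elf2 and Elf4 were tested and Ets2 and Etv2 had too few fragments. Of the 6 tested, 0 passed the threshold of 0.05 after Benjamini-Hochberg adjustment, and of all 6854 loci 0 (0%) did. At an unadjusted p under 0.05 there were 50 of all loci and 0 of the 6. The span from the lowest to the highest stage on the fitted log2 scale was 2.81 for Elk3 and 2.73 for Etv6, 2.09 for Ets1, 1.01 for Elf1, 0.68 for Elf2 and 0.64 for Elf4, against a median of 1.47 over all loci. The limma adjusted p was 1.00 for each of them. These spans and their order depended on single sorts. With a sort left out they ran from 2.58 to 4.01 for Elk3, 0.74 to 3.95 for Etv6, 1.44 to 3.67 for Ets1, 0.73 to 1.45 for Elf1, 0.71 to 2.39 for Elf2 and 0.52 to 2.27 for Elf4. The range of Elk3 covers only 7 of the 10 sorts. Without HE1, HE2 or HP of replicate 1 it fell under 20 positive fragments and was not fitted. These sorts held 6, 11 and 5 of its 24 positive fragments, so its range cannot be set beside the others. The lowest value of Etv6 and the highest values of Ets1, Elf1, Elf2 and Elf4 were all those without ES replicate 1.

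Whether the loci gave more positive than Negative fragments was asked for each sort. The 8 loci together held 0.118% ± 0.0485 (SD, n = 10 sorts) of the positive and 0.134% ± 0.0498 of the Negative fragments. The difference, positive minus Negative, was -0.0166 percentage points ± 0.0562 (SD, n = 10 sorts), below 1 SD, and the positive share was the higher in 4 of 10 sorts. Over the 5 sorts of replicate 1 the difference was 0.0119 ± 0.0314 and over those of replicate 2 it was -0.0451 ± 0.0640. Without the HE1 sort of replicate 1 it was -0.0181 ± 0.0594 (n = 9 sorts). The shares thus differed by less than the spread between sorts.

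**Figure D4:**
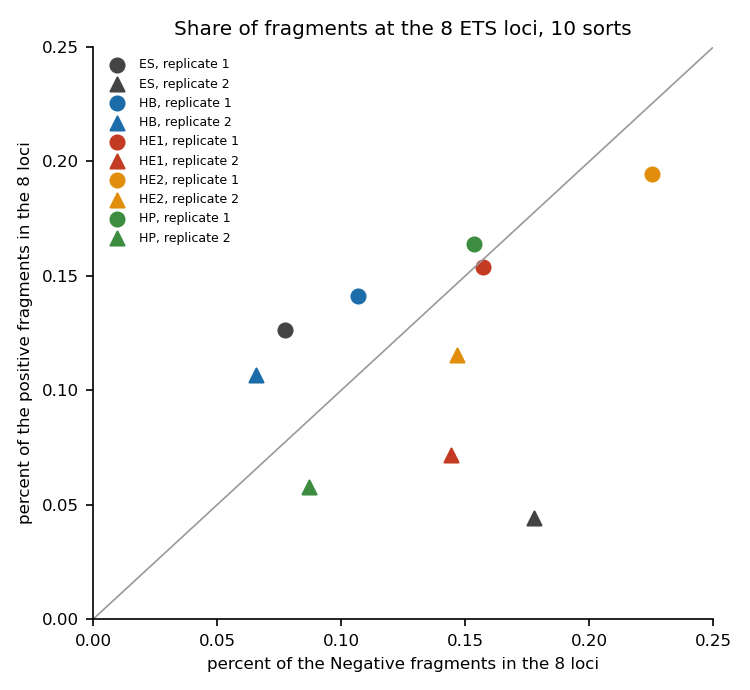
Percent of the positive fragments (y axis) and of the Negative fragments (x axis) that fell in the 8 loci, for each of the 10 sorts, with colour for the stage, circles for replicate 1 and triangles for replicate 2; the line marks equal shares. Of the 10 sorts 4 lie above the line, and ES of replicate 2 lies farthest below it.

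Among single loci Elk3 and Etv6 had the lowest values. In Elk3 the positive sets held 24 fragments and the Negative sets 15, where 30.0 positive ones were the number given by the sizes of the sets sort by sort. In Etv6 the numbers were 65 positive and 33 Negative, with 74.0 given by set size. In the other direction Elf1 had 43 positive fragments against 39.0 and Elf2 had 98 against 93.3. Ets1 (149 against 148) and Elf4 (95 against 92.7) lay closest to the number given by set size. Negative fragments exceeded positive ones per 10000 in 6 of 10 sorts at Etv6 and in 5 at Elk3, and positive ones exceeded Negative ones in 6 of 10 at Elf1 and at Elf2.

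None of these differences passed the test across loci. In limma (voom) with stage as a term, 0 of the 6 members tested and 0 of 7932 gene loci (0%) had an adjusted p under 0.05, while 2 members and 738 loci had an unadjusted p under 0.05. Of these 738 loci 727 were lower and 11 higher in the positive sets, and the 2 members were lower. The log2 difference, positive over Negative, was -1.54 (SE 0.53, limma adjusted p = 0.512) for Elk3 and -1.003 (SE 0.46, limma adjusted p = 0.528) for Etv6. It was -0.35 (SE 0.43) for Ets1, -0.09 (SE 0.49) for Elf4, 0.12 (SE 0.50) for Elf2 and 0.18 (SE 0.45) for Elf1, with limma adjusted p from 0.731 to 0.952. The median over all loci was -0.44 rather than 0, and each value is to be read against it: 0.845% of all loci lay below Elk3, 10.9% below Etv6, 91.5% below Elf2 and 93.5% below Elf1. With the sort as a block limma called 10 loci, all lower in the positive sets, and 0 of the members. The 9 tested genes among the other 18 ETS genes had a median of -0.24, and limma called 0 of them (2 at an unadjusted p under 0.05).

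The Cochran-Mantel-Haenszel test, which counts fragments within each of the 10 sorts and whose p-values cover counting error only, called 4 of 7932 loci (0.0504%) and 0 of the 6 members, with 270 loci at an unadjusted p under 0.05. Its unadjusted p was 0.0263 for Elk3 and 0.0332 for Etv6, and the adjusted p was 1.00 for all 6. Over all loci the median ratio of observed positive fragments to those given by set size was 1.002, whereas the limma median was -0.44 on the log2 scale. The cause of that shift was not tested. Leaving the fragment of 217 bp out of Etv6 gave 58 positive fragments against 65.7, a ratio of 0.882 in place of 0.879, with an unadjusted p of 0.0510 in the same test.

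The same test was made for single regions with at least 20 fragments. It called 10 of 5530 regions (0.181%), all with fewer positive fragments than set size gives, and 0 of the 8 member regions tested, each with an adjusted p of 1.00. At an unadjusted p under 0.05 there were 191 regions and 0 of the 8. The positive set was larger than the Negative set in every sort except HP of replicate 2. The number of positive fragments thus had little room above that given by set size. At Elf2 -8.3 kb, for example, set size gave 25.0, and 26 positive and 6 Negative fragments were observed. The test could therefore hardly call a member region higher in the positive sets. With the stages as strata, so without the pairing of replicates, 23 regions were called. The ratio of observed positive fragments to those given by set size was 1.09 at Ets1 -23.6 kb (46 against 42.3), 0.94998 at Ets1 20.2 kb (39 against 41.1), 1.04 at Elf2 -8.3 kb and 1.09 at Elf2 -24.8 kb. It was 1.01 at the Elf4 start site, 1.06 at Elf4 44.1 kb, 0.885 at Etv6 154.1 kb (21 against 23.7) and 0.848 at Etv6 11.7 kb (15 against 17.7). The median of all regions was 0.999. Without the HE1 sort of replicate 1 the Ets1 ratios were 1.11 and 0.913.

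**Figure D5:**
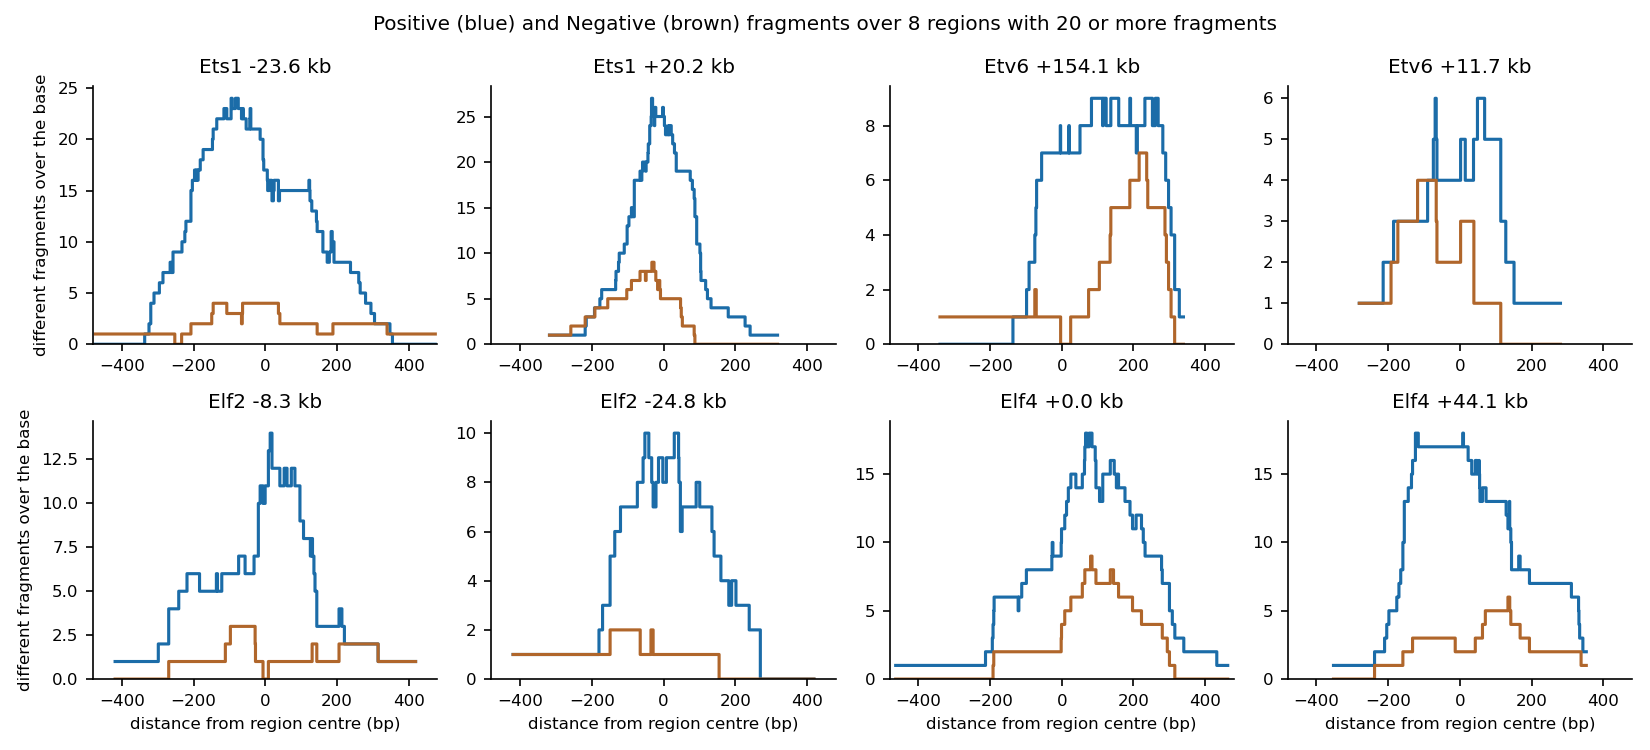
Different positive (blue) and Negative (brown) fragments over each base of the 8 regions with at least 20 fragments, by distance from the region's centre in bp, with a scale of its own for each region. Positive coverage reached 27 at Ets1 20.2 kb and 24 at Ets1 -23.6 kb, and Negative fragments lay within the same span.

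The median length of positive and Negative fragments was 197.5 and 199.5 bp at Ets1 -23.6 kb, 132 and 129 bp at Ets1 20.2 kb, 228 and 225 bp at Elf4 44.1 kb and 199.5 and 218.5 bp at the Elf4 start site. It was 146 and 159.5 bp at Elf2 -8.3 kb and 178 and 157 bp at Etv6 154.1 kb, and lay farthest apart at Elf2 -24.8 kb (150 and 190 bp) and Etv6 11.7 kb (197 and 157 bp). Their median centres lay 107.5 and 101.5 bp from the centre of the Elf4 start site region, on the same side of it. At Elf4 44.1 kb the median centres were farther apart, at -2.5 bp for positive and 115.5 bp for Negative fragments, and at Elf2 -24.8 kb they were at 23.5 and -106.5 bp. With 3 to 11 Negative fragments a region these are descriptions, with no test.

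Among positive libraries, the High and Low gates were compared to ask whether a locus leaned to strong or weak reporter signal. The gates drew unequally on the replicates, so the values are given within each, over the 5 stages together. Ets1 had 5.73 entries per 10000 in the Low and 5.17 in the High libraries of replicate 1, and 0.918 and 0.700 in those of replicate 2, from 4 entries and 1. Elf2 had 4.02 and 3.28 in replicate 1, and 0.918 and 0.700 in replicate 2. The Elf2 values of replicate 2 came from 4 entries and 1. Summed over stages, Low was thus the higher in both replicates at Ets1 and Elf2. Pooling the replicates put High above Low at both (4.61 against 3.79 and 2.96 against 2.77). The gates also differed in their mix of stages, so these sums do not give the direction within a stage. In replicate 1 Ets1 had 22 entries of 27370 (Low) and 17 of 18205 (High) in HE2, with High the higher rate. In HE1 it had 8 of 15458 and 18 of 39123, with Low the higher. At Etv6 the summed High value was the higher in both, with 1.55 (Low) and 1.79 (High) in replicate 1 and 2.30 and 2.80 in replicate 2. The direction again differed between stages. In replicate 1 Etv6 had 1 entry of 15458 (Low) and 10 of 39123 (High) in HE1, with High the higher rate. In HE2 it had 6 of 27370 and 2 of 18205, with Low the higher. Its High entries of replicate 2 were 1 in ES and 3 in HB. Elf4 had 2.94 and 3.58 in replicate 1, and 3 entries and 1 in replicate 2. Elf1 had 0.928 and 1.39 in replicate 1, and 5 entries and 1 in replicate 2. In limma, 5 members had the 20 fragments needed, 0 of them and 0 of 5094 loci (0%) passed, and 158 loci had an unadjusted p under 0.05. The log2 difference, High over Low, was 0.28 (SE 0.44) for Ets1, 0.25 (SE 0.47) for Elf4, 0.14 (SE 0.53) for Elf1, 0.09 (SE 0.45) for Elf2 and -0.08 (SE 0.46) for Etv6, with a median of 0.13 over all loci, so that at Ets1, Elf2 and Etv6 the fitted sign was opposite to that of the summed entries within the replicates.

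The gene loci whose positive fragments were most like those of Ets1 over the 10 sorts were Tafa3, Ppm1j and Nuak1. The mean absolute difference from Ets1 in log2 fragments per 10000 (pseudocount 0.5) was 0.23 for each of them, against a median of 1.48 over the 6853 loci compared. They were picked for low values of this measure, so their distance from the median follows from the choice. The measure takes in the number of fragments (115, 115 and 143 positive ones) and not the stage pattern alone. Tafa3 and Ppm1j are neighbours whose loci hold the same fragments, so they count as 1.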

How the data were processed

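Per the labels and the study's methods, the authors used Trim Galore for trimming and Bowtie2 for alignment to mm10 (insert up to 600 bp), kept proper pairs of mapping quality over 40 with SAMtools and wrote each different fragment once. The deposited values are fragment coordinates in bp, with no read numbers, so a library's depth is its number of fragments, and intervals and limits of a 0 (3 counts) cover counting error only. PCR (without molecular identifiers) can turn 1 molecule into several near-identical fragments. The methods describe removal of a background library, an open-chromatin filter and a promoter split. The open-chromatin filter included a requirement for a peak of open chromatin at the matching stage. Which of these steps shaped the deposited lists is not stated.

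GRCm38 and RefSeq supplied sequence and genes. Sets were the positive (Low, Medium and High, each fragment once) and Negative fragments of a sort. limma 3.58.1 (R 4.3.3; voom, eBayes, all gene loci with at least 20 fragments) and Cochran-Mantel-Haenszel tests (10 sorts as strata) were adjusted by Benjamini-Hochberg at 0.05. A limma value is a log2 difference of fragments per set size. Equal replicate numbers were taken as paired in the tests with sorts as strata and the replicate-block fits, whereas the main limma fits had no such block. In all 5 stages the deviations of a sort's positive and Negative sets from their group means correlated (r from 0.326 to 0.493 across loci). Those of the positive sets of 2 stages correlated about as much (r from 0.302 to 0.462), so the correlation was not particular to a sort. Members, regions described singly (the leading region of each locus, those with at least 20 fragments and those positive in both replicates at the same stage), gene lists and motifs were chosen with earlier results of these data known. P-values over replicates measure the spread between these samples, which may be technical.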

Additional observations from a re-analysis of the deposited data

Results flagged for a closer look

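Each of the 8 loci, and the 8 together, were screened for stages where both replicates had the same sign, with opposite signs at different stages. Such stages were found for 2 of these items, which overlap, since the 8 loci include Etv6. How many of all gene loci would be flagged in this way was not counted, so the number flagged is no result about these loci. For the 8 loci together, positive minus Negative fragments per 10000 was 3.44 and 4.10 in the HB sorts of replicates 1 and 2, while it was -0.31 and -7.24 in HE1 and -3.10 and -3.14 in HE2, so that HB lay 7.22 above HE1 and HE2 on average. At Etv6 the values were 0.867 and 0.00402 in HB, -1.13 and -5.49 in HE1 and -2.41 and -8.12 in HE2, a distance of 4.72. These differences between stages were not tested. Several of the values rest on few fragments. The HB values at Etv6 came from 8 positive fragments and 1 Negative fragment in replicate 1 and from 4 and 1 in replicate 2. In replicate 2 Etv6 had 6 positive and 2 Negative fragments in HE1, and 1 and 3 in HE2. The 8 loci together had 13 and 2 in HB and 4 and 4 in HE2 of replicate 2. HE1 of replicate 1 is the sort whose Negative and Medium libraries share fragments.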

How the results depend on the processing

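The count of gene loci called between positive and Negative sets, 0 of 7932, was 10 with the sort as a replicate block, 4 with the Cochran-Mantel-Haenszel test and 0 to 2 when a sort or a replicate was left out (2 without replicate 2). It was 0 with stage and replicate number as terms (replicate block) and under the other alternatives. The counts across stages and for High against Low were 0 under every alternative run, the replicate block included. The count of regions, 10 with the sorts as strata, was 23 with the stages as strata and no replicate block, so the block also changed that count, and it was 17 with at least 10 fragments, 5 with at least 50 fragments, 3 with Medium and High only as positive and 0 with near-identical fragments collapsed, and it ran from 5 to 17 when a sort or replicate was left out (5 without replicate 2 or HE1 replicate 2, 6 without HB replicate 2, 17 without HP replicate 2). No member was called under any of these settings.

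Members' signs depended on the setting where values were near 0. For positive against Negative, Elf4 (-0.09) was 0.43 and 0.83 on a plain log2 scale with pseudocounts of 0.5 and 0.1, 0.21 with Medium and High only and 0.16 as the log2 odds ratio of the Cochran-Mantel-Haenszel test. Elf2 (0.12) was -0.34 with a flank of 10 kb and -0.039 without fragments of both classes, and Ets1 (-0.35) was 0.068 as the log2 odds ratio. With sorts or replicates left out the ranges were -0.61 to 0.019 for Ets1, -0.091 to 0.74 for Elf1, -0.23 to 0.31 for Elf2 and -0.34 to 0.10 for Elf4, while Elk3 (-1.76 to -1.26) and Etv6 (-1.39 to -0.63) kept their sign. The size of these 2 values moved more with the scale. On the plain log2 scale (pseudocounts of 0.5 and 0.1) Elk3 was -0.48 and -0.74, and Etv6 was -0.72 and -0.80. Without fragments of both classes they were -1.92 and -1.29. For High against Low, Ets1 was -0.37 and Elf1 -0.38 on the plain log2 scale and Etv6 was 0.077 with the replicate block, and with sorts or replicates left out Etv6 ran from -0.33 to 0.097, Elf1 from -0.15 to 0.42 and Elf2 from -0.25 to 0.23. The ratio at Ets1 20.2 kb was 1.01 without the replicate block and 0.903 to 1.05 with sorts left out, and that at the Elf4 start site was 0.9796 to 1.03. The causes were not tested. The percent difference of the 8 loci stayed within 1 SD (-0.0451 to 0.0119). The alternatives without HE1 replicate 1 for that difference and without the frequent Etv6 fragment were chosen after seeing the data. Ets2 and Etv2 could not be tested at 20 fragments, and of the loci compared between positive and Negative only Etv6 could without replicate 1.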
